A study of Mus musculus with 8 samples.

Results

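The genes described here are 10 transcription factor and early response genes: the FOS family (Fos, Fosb, Fosl1 and Fosl2), the JUN family (Jun, Junb and Jund), and Egr1, Atf3 and Ier3. They were chosen by name, and all 10 were found among the 48413 genes of the deposited sheet of normalised read counts. RNA was sequenced from small intestine adenomas of C57BL/6 background mice. One group was ApcMin/+, which carries a truncated allele of the tumour suppressor gene Apc, with Sfn intact (4 mice, 256 to 282 days old). The other was ApcMin/+ with both copies of Sfn deleted, which removes 14-3-3σ, an adaptor protein that binds phosphorylated partners (4 mice, 144 to 148 days old), called knockout below. All 8 mice carry the ApcMin/+ allele in every tissue, so neither group is normal intestine, and age and genotype cannot be told apart. Each library is bulk tissue, in which fewer cells of a type and less RNA per cell cannot be told apart.

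AP-1 is a transcription factor made of pairs of basic leucine zipper proteins: JUN proteins pair with each other or with FOS proteins, while FOS proteins need a JUN partner. Several of these genes are immediate early genes, which are switched on within minutes of growth factor, stress or wound signals through MAP kinases, without new protein synthesis, and whose RNAs are short-lived. In intestinal tumours of ApcMin/+ mice, JUN has been tied to proliferation downstream of the JNK kinases. Because these RNAs respond so fast, their level in dissected tissue also depends on how it was collected.

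The deletion was visible in the data: Sfn was at 6585 to 15968 with the gene intact and at 0 or 1 in knockout libraries. Epithelial and adenoma markers were present in every library. Their summed level was 453952 to 717515 in ApcMin/+ and 434940 to 531490 in knockout adenomas, with Krt8 and Krt19 the most abundant of 15. The sum is weighted to its most abundant genes, and genes of the list differed in pattern. In ApcMin/+ replicates 1 to 4, Krt8 was at 235952, 120084, 128620 and 248383, and Nkd1 at 11045, 21604, 20451 and 10612. Xist, which coats the silenced X chromosome of females, was above 1000 in 3 libraries: replicates 2 and 3 of ApcMin/+ and a single knockout. The column of this knockout names an animal that is ApcMin/+ in the labels, the same animal number as in the column of ApcMin/+ replicate 4. It was therefore used without a replicate number or age, as the unnumbered library. The summed level of 10 absorptive enterocyte markers also set ApcMin/+ replicates 2 and 3 (150469 and 156118) apart from ApcMin/+ replicates 1 and 4 (462885 and 569702) and from the knockout libraries (346624 to 536193). This sum is weighted to Apoa4 and Apoa1, its most abundant genes, and genes of this list differed in pattern too. Sis was at 2662 to 12312 in ApcMin/+ and at 21234 to 42778 in knockout libraries.

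None of the 10 genes passed the test between genotypes. In limma, fitted on log2(value + 1) over 17523 genes, 0 of the 10 had an adjusted p under 0.05, against 0.331% of all genes tested (0.188% higher and 0.143% lower in knockout adenomas). At an unadjusted p under 0.05 there was 1, Jun, against 18.9% of all genes. Log2 fold changes, knockout minus ApcMin/+, ran from -0.29 (Jun) to 0.47 (Fosb), with 5 above and 5 below 0. Their median was -0.00026, and the median of all genes tested was -0.07.

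**Figure D1:**
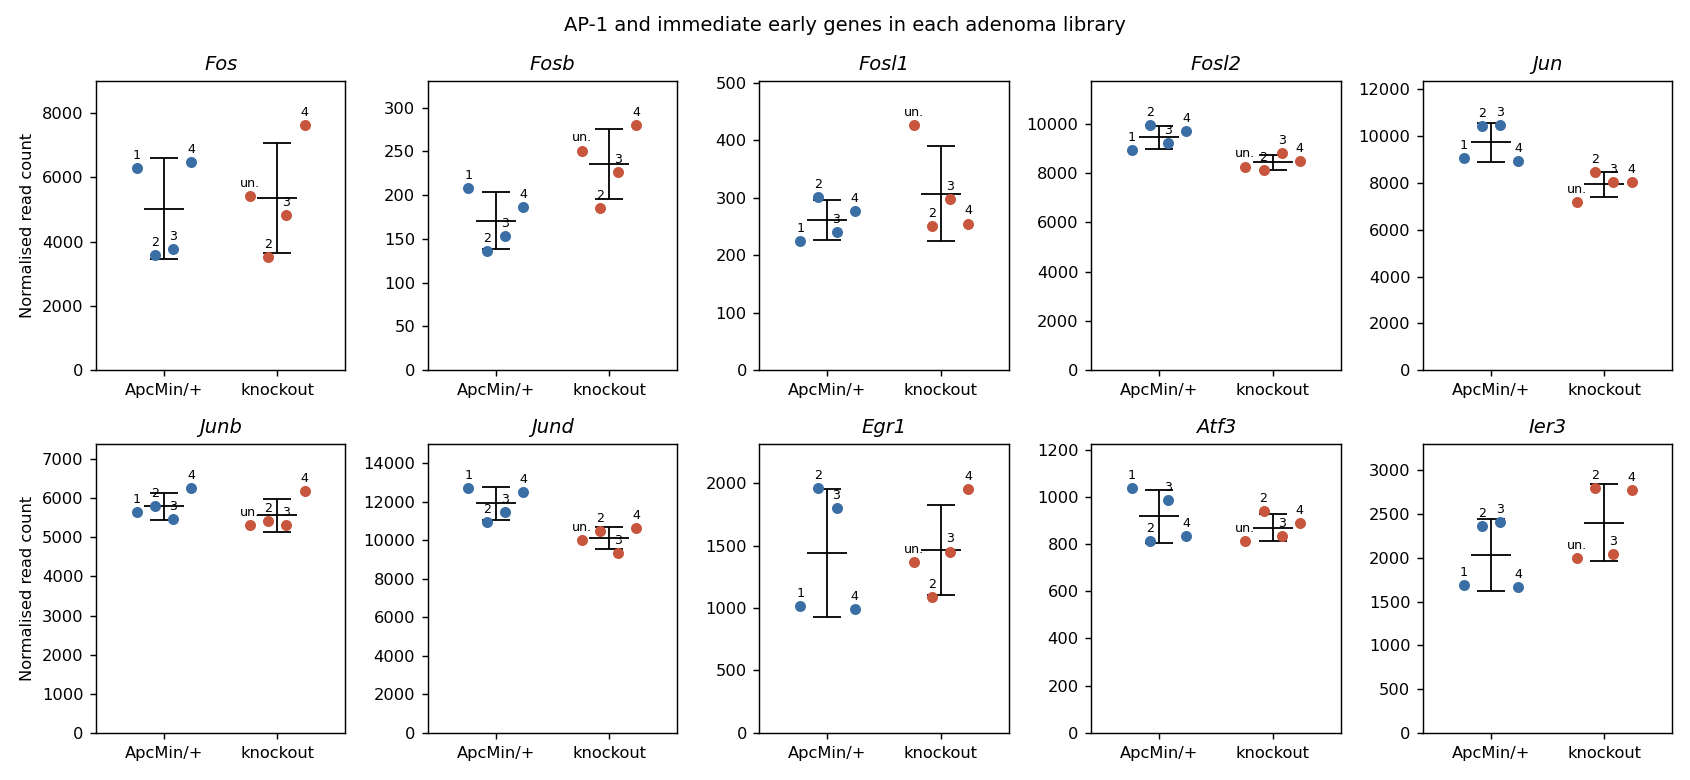
Normalised read count of each gene (y axis, from 0) in the 4 ApcMin/+ (blue) and 4 knockout (red) libraries; each point is 1 adenoma, labelled with its replicate number or "un." for the unnumbered library, and bars are mean ± SD (n = 4). Jun, Jund and Fosl2 sit slightly lower in the knockout libraries, while Fos and Egr1 scatter widely inside each genotype.

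Summed and scaled for transcript length, the JUN family exceeded the FOS family in every library (ratio 2.40 to 3.92). Jun encodes the prototype AP-1 subunit, a strong activator, and lies on chromosome 4 (GRCm38, 95049034 to 95052222, minus strand, a single exon), 38.6 Mb from Sfn. In ApcMin/+ replicates 1 to 4, Jun stood at normalised read counts of 9069, 10445, 10468 and 8937. In the knockout adenomas it was 7193 in the unnumbered library and 8471, 8049 and 8058 in replicates 2 to 4. The highest knockout library thus lay 466 below the lowest ApcMin/+ library. The means were 9729.75 ± 841 and 7942.75 ± 537 (SD, n = 4 each), a log2 fold change of -0.29 (95% interval -0.55 to -0.04; limma adjusted p = 0.221). Of the exonic bases of Jun, 689 lie within the span of the antisense gene Junos, whose mean value was 80.9. Whether counting used strand is not stated.

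Jund encodes the JUN family member that is made in resting cells and is often the brake on JUN-driven growth (chromosome 8, 70698949 to 70700616, plus strand, a single exon). It was at 12711, 10938, 11461 and 12513 in the ApcMin/+ replicates, and at 10030 in the unnumbered knockout library and 10462, 9325 and 10635 in knockout replicates 2 to 4. Again every knockout library was the lower, by a gap of 303. The log2 fold change was -0.23 (95% interval -0.48 to 0.01; limma adjusted p = 0.283).

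Junb, a partner that can replace or oppose JUN, behaved otherwise (chromosome 8, 84974484 to 84978718, minus strand). Its values were 5659, 5797, 5467 and 6267 in ApcMin/+ adenomas, and 5325 (unnumbered), 5428, 5314 and 6175 in knockout adenomas. The genotypes overlapped, with 3 knockout libraries close together below every ApcMin/+ library and replicate 4 well above them. The log2 fold change was -0.06 (95% interval -0.29 to 0.17; limma adjusted p = 0.772). Of the exonic bases of Junb, 173 lie within the span of Prdx2, a more abundant gene on the opposite strand (mean value 11740.5).

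Fosl2 encodes FRA2, a FOS protein without the strong activation domain of FOS (chromosome 5, 32135801 to 32157842, plus strand). Values were 8921, 9934, 9211 and 9687 in ApcMin/+ adenomas and 8257 (unnumbered), 8120, 8810 and 8499 in knockout adenomas. The gap between genotypes was 111. It had a log2 fold change of -0.16 (95% interval -0.38 to 0.06; limma adjusted p = 0.387).

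Jun, Jund and Fosl2 were thus the 3 of 10 genes whose genotypes did not overlap, each lower in the knockout adenomas. The same held for 10.6% of all genes tested, while 5.5% were higher without overlap, 16.1% in all. These gaps depended on how the libraries were scaled, a check added after the values were seen. After median-ratio scaling 0 of the 10 genes were free of overlap, and likewise after quantile normalisation, while 7.38% and 8.79% of all genes lay lower without overlap. The fold changes of these 3 genes stayed below 0 in each of 21 other settings, with ranges of -0.33 to -0.14 for Jun, -0.32 to -0.16 for Jund and -0.19 to -0.09 for Fosl2.

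**Figure D2:**
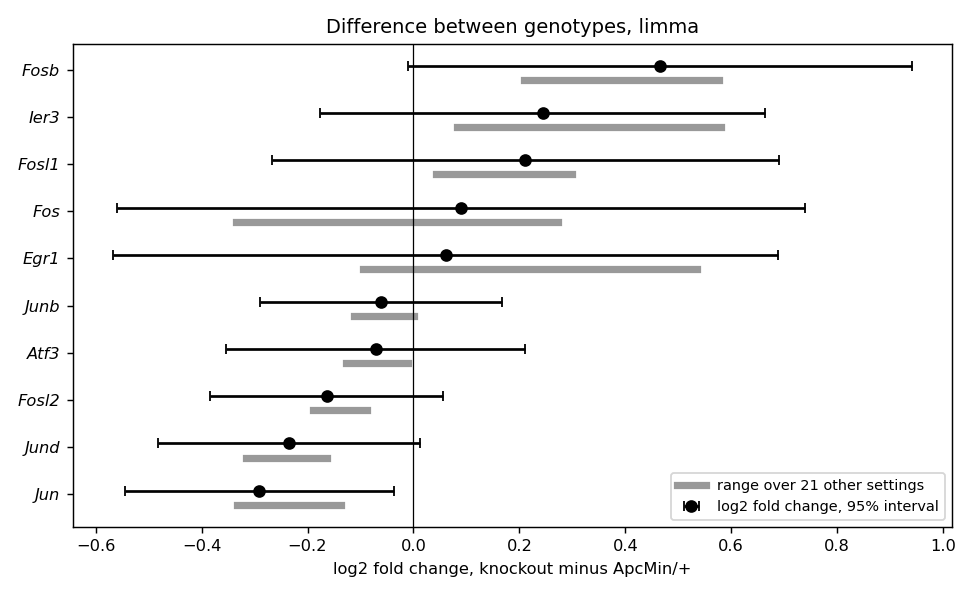
Log2 fold change of each gene, knockout minus ApcMin/+ (x axis; y axis, genes ordered by fold change); points with bars are the limma estimate and its 95% interval, and grey bars span the estimates over 21 other settings. Of the 10 intervals, that of Jun (-0.55 to -0.04) leaves out 0, before adjustment for the number of genes tested.

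Fos, the classic immediate early gene and the namesake of the FOS family, varied more between adenomas than between genotypes (chromosome 12, 85473890 to 85477273, plus strand). It was at 6293, 3579, 3761 and 6473 in ApcMin/+ replicates 1 to 4. The knockout values were 5432 (unnumbered), 3518, 4826 and 7629. The range was 1.81-fold within ApcMin/+ and 2.17-fold within knockout adenomas, and the lowest and the highest library were both knockouts. The log2 fold change was 0.09 with a 95% interval of -0.56 to 0.74 (limma adjusted p = 0.892).

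Fosb, whose protein resembles FOS and lasts longer in a truncated form, had the largest positive fold change of the set (chromosome 7, 19302696 to 19310051, minus strand). It was at 208, 136, 153 and 186 in ApcMin/+ adenomas and at 251 (unnumbered), 185, 227 and 280 in knockout adenomas. Knockout replicate 2 fell below ApcMin/+ replicates 1 and 4, and the other knockout libraries lay above all of ApcMin/+. Means were 170.75 ± 32.4 and 235.75 ± 40.2 (SD, n = 4 each), a log2 fold change of 0.47 (95% interval -0.01 to 0.94; limma adjusted p = 0.271).

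Fosl1 encodes FRA1, which is induced later by sustained ERK signalling (chromosome 19, 5447547 to 5455946, plus strand). Its values were 224, 301, 240 and 277 in ApcMin/+ adenomas. In knockout adenomas they were 426 in the unnumbered library and 250, 297 and 255 in the others. The unnumbered library alone stood above the ApcMin/+ range; the log2 fold change of 0.21 (95% interval -0.27 to 0.69; limma adjusted p = 0.610) was 0.04 without it. Of the exonic bases of Fosl1, 1163 lie within the span of Ccdc85b on the opposite strand (mean value 649.5).

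Upstream sequence is shown for the pair that moved together across adenomas, Fos and Fosb, and for Jun, which had the smallest p of the set. The stretches end just before the annotated transcription start and come from RefSeq (GRCm38.p6), printed 5′ to 3′ on the strand of the gene. They are chr12:85473640-85473889 (plus strand) for Fos, chr7:19310052-19310295 (minus strand) for Fosb and chr4:95052223-95052472 (minus strand) for Jun. Capitals mark every match to the motifs searched, as named after the sequences.
Fos: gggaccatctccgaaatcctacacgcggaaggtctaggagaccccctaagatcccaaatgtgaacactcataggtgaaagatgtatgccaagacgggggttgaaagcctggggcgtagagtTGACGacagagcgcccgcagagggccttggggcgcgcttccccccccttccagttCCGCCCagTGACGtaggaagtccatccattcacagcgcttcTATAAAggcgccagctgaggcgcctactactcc
Fosb: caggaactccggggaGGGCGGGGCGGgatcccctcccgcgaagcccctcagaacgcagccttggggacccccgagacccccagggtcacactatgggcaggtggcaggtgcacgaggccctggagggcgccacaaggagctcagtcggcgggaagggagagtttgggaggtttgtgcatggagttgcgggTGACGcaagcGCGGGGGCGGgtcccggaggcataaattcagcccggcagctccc
Jun: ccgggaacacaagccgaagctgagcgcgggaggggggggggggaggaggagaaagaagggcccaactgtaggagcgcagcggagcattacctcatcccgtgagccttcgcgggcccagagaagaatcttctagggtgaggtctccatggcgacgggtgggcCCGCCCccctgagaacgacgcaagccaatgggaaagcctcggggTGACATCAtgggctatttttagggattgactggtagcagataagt

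Counted back from the RefSeq start, Fos held the cyclic AMP response element core TGACG at -129 and -66, an SP1 motif at -74 and the TATA box TATAAA at -33. Fosb held TGACG at -60, the EGR motif GCGGGGGCG at -50, which overlaps an SP1 motif at -46, and overlapping SP1 motifs at -235 and -230. Jun held TGACATCA at -45, the site in its own promoter at which JUN pairs are known to bind, and an SP1 motif at -89. TGACG occurs in the 250 bases before 17.9% of 27025 genes and before 4 of the 8 genes matched here (Fos, Fosb, Junb and Atf3). TGACATCA occurs before 3.02% of genes, GCGGGGGCG or GCGTGGGCG before 3.05%, GGGCGG before 32.9% and TATAAA, on the gene strand, before 8.12%. The letters TGAGTCA or TGACTCA (4.43% of genes), TGACGTCA (1.62%) and the CArG box (1.40%) were not in any of the 8 windows. Sites more than 250 bases before the RefSeq start were not searched, so this does not show that a gene lacks them. The Fosl2 window lay wholly inside annotated exons, and the Jund window ended at 70697738, before the gene start given above (70698949). The far end of the Atf3 window was at 191183583, inside the annotated gene, which begins at 191218039 on the minus strand. Every motif except the TATA box was searched on both strands. TGACATCA was added to the search after the Jun window was read. Fosl1 and Egr1 were not matched. A match of letters is a description and not a bound site.

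Egr1 encodes a zinc finger factor of the same early wave that binds the EGR motif (chromosome 18, 34859823 to 34864984, plus strand). It was at 1014, 1963, 1805 and 995 in ApcMin/+ adenomas and at 1368 (unnumbered), 1091, 1453 and 1951 in knockout adenomas. Both genotypes thus spanned a nearly equal range, and the means were 1444.25 ± 512 and 1465.75 ± 359 (SD, n = 4 each). The log2 fold change was 0.06 (95% interval -0.57 to 0.69; limma adjusted p = 0.928).

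Atf3 encodes a stress-induced zipper protein that pairs with JUN proteins and often represses (chromosome 1, 191170296 to 191218039, minus strand). It was at 1038, 811, 988 and 832 in ApcMin/+ adenomas and at 814 (unnumbered), 940, 833 and 890 in knockout adenomas. Knockout values lay inside the ApcMin/+ range, with a log2 fold change of -0.07 (95% interval -0.35 to 0.21; limma adjusted p = 0.784).

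Ier3, an early response gene whose protein prolongs ERK signalling and modulates cell death (chromosome 17, 35821684 to 35822923, plus strand), was at 1694, 2365, 2410 and 1664 in ApcMin/+ adenomas. It was at 1996 (unnumbered), 2798, 2047 and 2768 in knockout adenomas. The genotypes overlapped, and the log2 fold change was 0.24 (95% interval -0.18 to 0.66; limma adjusted p = 0.493). In the 5 libraries with Xist at or below 1000, ApcMin/+ replicates 1 and 4 against knockout replicates 2 to 4, it was 0.58 (limma adjusted p = 0.0499). That fit called 2194 of all genes, and Ier3 was 1 of 10 members among them.

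Variation within a genotype ran along lines shared by several of the genes. Within ApcMin/+, Fos and Fosb were higher in replicates 1 and 4 than in replicates 2 and 3, and Egr1, Jun and Ier3 were higher in replicates 2 and 3. For Fos the deviations from the genotype mean were 0.38, -0.44, -0.36 and 0.42 on the log2 scale, and for Egr1 they were -0.44, 0.51, 0.39 and -0.47. Replicates 1 and 4 were also those with low Xist and high enterocyte markers. They had the higher summed epithelial and adenoma markers too (666031 and 717515, against 453952 and 455684). Sfn was likewise higher in them (14607 and 15968, against 6585 and 6989). The part of any of these differences in the levels of the genes was not tested. The normalisation of the sheet made the mean log2 level of replicates 1 and 2 nearly equal that of replicates 3 and 4 for each gene, so 1 against 2, and 3 against 4, mirror each other by construction.

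Among knockout adenomas, replicate 4 was the highest for 5 of the 10 genes (Fos, Fosb, Junb, Jund and Egr1) and the lowest for 0. Replicate 2 was the lowest for 5 (Fos, Fosb, Fosl1, Fosl2 and Egr1) and the highest for 3. Fos and Egr1, opposite in ApcMin/+ adenomas, both had their knockout minimum in replicate 2 and maximum in replicate 4. The unnumbered library, with high Xist, was intermediate for Fos (0.08) and Egr1 (-0.07) and high for Fosl1 (0.51).

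**Figure D3:**
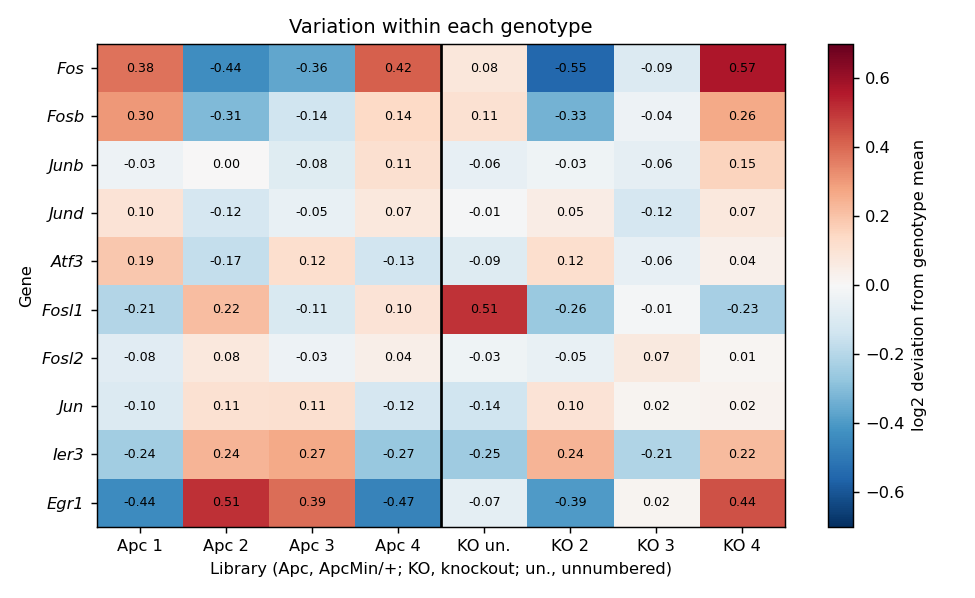
Deviation of each library from the mean of its genotype on the log2(value + 1) scale (colour and printed value), for 10 genes (rows) in 8 libraries (columns). Fos runs from -0.55 to 0.57 and Egr1 from -0.47 to 0.51, while Fosl2 stays between -0.08 and 0.08.

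The spread between adenomas differed widely among the 10 genes. Within genotypes the SD of Fos was 0.51 and that of Egr1 0.49 on the log2 scale, above 78.2% and 76.7% of all genes tested. Fosl2, Junb, Jund and Jun had SDs of 0.07, 0.10, 0.10 and 0.12, above 1.1%, 5.9%, 6.0% and 10.9% of all genes. Atf3 was at 0.16 (20.9%). Fosb, Ier3 and Fosl1 lay between, at 0.29, 0.31 and 0.31. Fosb and Fosl1 were also the least abundant of the set. Fosl2, Junb, Jund and Jun had mean log2 levels of 12.5 to 13.4, and Fos 12.3. The ranking was over genes of every level and was not matched for abundance.

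The genes outside the set whose within-genotype pattern was most like that of Fos were sought over 8 libraries among 14828 genes with a mean log2 level of at least 5. The first was Hbegf, the gene of an EGF receptor ligand that is itself induced by growth factors (Pearson r = 0.994). Its values were 1461, 1001, 994 and 1568 in ApcMin/+ adenomas and 1320 (unnumbered), 890, 1202 and 1721 in knockout adenomas. Next came the transcription factor gene Mef2d (0.988), the phosphatase gene Ptpn18 (0.985), Fam117b (0.985) and BC016579 (0.978). Fosb had a coefficient of 0.96 with Fos. With 5 free directions of variation among these libraries, high coefficients are easily reached, and they are given as a description.

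Per kilobase of the longest coding transcript, Jund was the most abundant member in both genotypes, at 7138 ± 508 in ApcMin/+ and 6063 ± 350 in knockout adenomas (SD, n = 4 each, normalised read count per kilobase). Junb was at 3205 ± 189 and 3074 ± 228, and Jun at 3051 ± 264 and 2491 ± 168. Their ranges overlapped each other in ApcMin/+ adenomas, while in the knockout adenomas Junb, from 2938, lay above Jun, up to 2656. Fos was at 2384 ± 745 and 2539 ± 814, overlapping Junb and Jun in both genotypes, and Ier3 at 1798 ± 362 and 2124 ± 389. Fosl2 was at 1444 ± 69.9 and 1288 ± 46.3, and Atf3, Egr1 and Fosl1 were at 462 ± 56.8, 322 ± 114 and 140 ± 18.8 in ApcMin/+ adenomas. Fosb was the lowest of all, at 45.1 ± 8.56 and 62.3 ± 10.6. Transcript lengths are from GENCODE M21, which may not be the annotation used for counting.

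Shares within a family are not moved by a single scaling factor per library, but normalisations that act gene by gene or by rank, as RUVs and quantile normalisation do, can move them. Of the length-scaled signal of the 4 FOS family genes, Fos made up 49.7% to 66.0% in ApcMin/+ and 53.9% to 70.5% in knockout libraries, and Fosl2 most of the rest. Fosb made up 1.215%, 1.053%, 1.203% and 1.035% in ApcMin/+ replicates 1 to 4. In the knockout libraries its share was 1.605% (unnumbered), 1.581%, 1.556% and 1.443%. Every knockout library thus lay above every ApcMin/+ library, although Fosb itself overlapped; this share was singled out after the values were seen, among 7 shares computed, and was not tested. Of the JUN family signal, Jund made up 50.3% to 56.1% in ApcMin/+ and 50.6% to 53.6% in knockout libraries. Junb made up 22.9% to 25.2% and 25.2% to 27.7%, touching at the border, where ApcMin/+ replicate 4 and knockout replicate 2 were nearly equal. The ratio of summed JUN to summed FOS signal was 3.41 ± 0.533 and 2.96 ± 0.629 (SD, n = 4 each), with overlapping values.

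**Figure D4:**
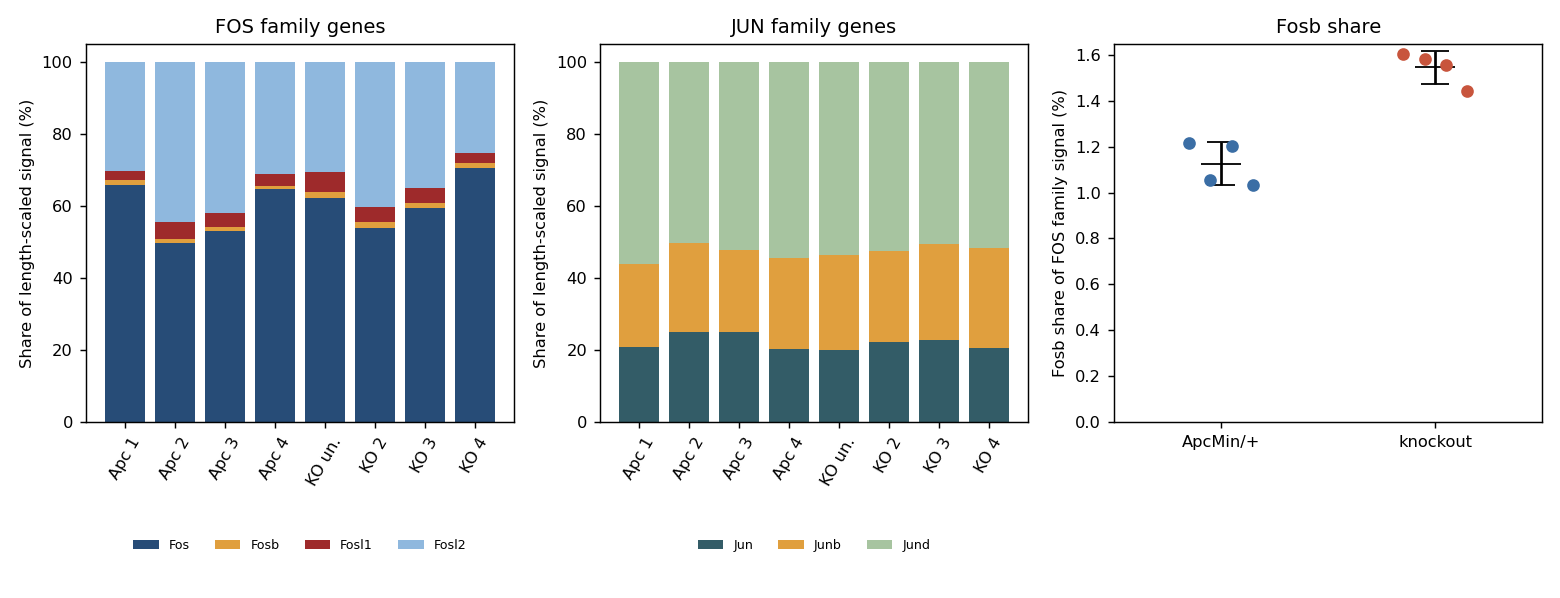
Share of the length-scaled signal (y axis, percent) taken by each gene of the FOS family (left) and the JUN family (middle) in each library, and the Fosb share alone (right; points are libraries, bars mean ± SD, n = 4). Fosb takes 1.035% to 1.215% in ApcMin/+ and 1.443% to 1.605% in knockout libraries.

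Other genes of the same pathway were read from lists by role, chosen with earlier results of these data known. Over all genes tested, 7.39% were higher and 11.6% lower at an unadjusted p under 0.05, 7178 of 17523 lay above 0 and 10345 below, and the median log2 fold change was -0.07; the counts of each list are to be read against these. Of 28 other basic leucine zipper genes, 0 passed limma over all genes and 3 were higher at an unadjusted p under 0.05, near the share of all genes; the list median was 0.01 on the log2 scale. Bach1, a repressor of oxidative stress genes, and Creb1, a factor that binds cyclic AMP response elements, lay higher in every knockout library (log2 fold changes 0.49 and 0.34; limma adjusted p 0.151 and 0.156). Nfil3 had 0.33 (limma adjusted p = 0.259).

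Of 41 other immediate early genes, 1 rose and 0 fell, with 5 higher and 4 lower at an unadjusted p under 0.05, near the shares of all genes, and a median of 0.05. Ctgf, the gene of a secreted matrix protein induced by serum and by mechanical load, rose from 451, 521, 530 and 443 in ApcMin/+ adenomas to 866 (unnumbered), 951, 745 and 881 in knockout adenomas. Its log2 fold change was 0.82 (limma adjusted p = 0.0486), and 12 of 21 other settings lost the call with the direction kept. Among them was the omission of any single knockout library, with limma adjusted p from 0.110 (without replicate 3) to 0.172 (without replicate 4). Those fits had 4 residual degrees of freedom, and fits without an ApcMin/+ library had 5, so the 2 kinds are not alike. Myc, the growth-promoting factor that Wnt signalling induces in adenomas, and Btg2, an antiproliferative early gene, lay lower in every knockout library. Their log2 fold changes were -0.51 and -0.34 (limma adjusted p 0.148 and 0.153).

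Of 14 genes listed as feedback or response genes of ERK signalling, not all of them inhibitors and Ier3 included, 0 passed limma over all genes. At an unadjusted p under 0.05, 1 was higher, near the 7.39% of all genes. The log2 fold change was above 0 for 12, with a median of 0.21. Spred1, an inhibitor of RAF activation, was at 1742 to 2028 in ApcMin/+ and 2393 to 2674 in knockout libraries (log2 fold change 0.39, limma adjusted p = 0.127). Spry4 and Dusp4 had 0.49 and 0.36 (limma adjusted p 0.292 and 0.317).

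The kinases and factors above AP-1 did not pass. Of 22 MAP kinase cascade genes, 0 passed limma, 2 were higher and 1 lower at an unadjusted p under 0.05 (7.39% and 11.6% of all genes), and the median was -0.09. They were Rps6ka3 (0.44), Mapk8, which encodes the JUN kinase JNK1 (0.38), and Mapk3, which encodes ERK1 (-0.34), with limma adjusted p of 0.175, 0.213 and 0.249. Of 17 upstream factors 0 passed, with 3 higher and 1 lower at an unadjusted p under 0.05 and a median of -0.08. Rela, a subunit of NF-kB, had -0.24 and Mef2a 0.32 (limma adjusted p 0.215 and 0.238). Of 10 inhibitors and turnover factors 0 passed, with 1 higher at an unadjusted p under 0.05 and a median of 0.03. Dusp1, the phosphatase that switches off stress kinases, was higher in every knockout library (log2 fold change 0.35), Itch, a ubiquitin ligase for JUN proteins, had 0.25 and Det1 had -0.25 (limma adjusted p 0.240, 0.305 and 0.324).

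Of 34 genes known as AP-1 targets, 2 rose and 0 fell over all genes, 14 were higher and 0 lower at an unadjusted p under 0.05, against 7.39% and 11.6% of all genes tested. The list had a median of 0.28 on the log2 scale, against -0.07 for all genes. It was chosen with earlier results of these data known, so its counts and median are a description and not a test. Both that rose, Ereg and Ptgs2, respond to several other pathways too. Ereg, the gene of epiregulin, a growth factor for the EGF receptor, was at 484, 1118, 761 and 710 in ApcMin/+ adenomas. It was at 2602 (unnumbered), 3058, 3765 and 2836 in knockout adenomas (log2 fold change 2.04, limma adjusted p = 0.0167). Ptgs2, which encodes the inducible cyclooxygenase, was at 415, 681, 712 and 385 and at 1420 (unnumbered), 2378, 1516 and 1867 (1.73, limma adjusted p = 0.0396). The calls were lost in 6 and 8 of 21 other settings, with the direction kept. Leaving out knockout replicate 2, 3 or 4 gave limma adjusted p of 0.0627, 0.0708 and 0.0571 for Ereg. For Ptgs2 it gave 0.105, 0.112 and 0.143, and 0.0810 without the unnumbered library. These fits also had 4 residual degrees of freedom, against 5 without an ApcMin/+ library.

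Il11, a cytokine gene of fibroblasts and epithelium, was at 414 to 711 in ApcMin/+ and 1030 to 1981 in knockout libraries (log2 fold change 1.23, limma adjusted p = 0.0950). Marker levels of other cells are given beside these values, from lists also chosen with earlier results known. The summed level of 10 neutrophil markers was 1019 to 2221 in ApcMin/+ and 1953 to 5828 in knockout libraries, with Mmp9, which is on both lists, and S100a9 the most abundant. That of 10 fibroblast markers was 31703 to 43732 and 44764 to 88470, with Col1a1 and Col3a1 the most abundant. At an unadjusted limma p under 0.05, 8 neutrophil and 6 fibroblast markers were higher and 0 lower, against 7.39% and 11.6% of all genes. Median log2 fold changes were 1.68 and 0.73, against -0.07 for all genes, and 0 markers of either list passed limma over all genes. None of either list had a mean below 1, and their part in the levels of the target genes was not tested. Macrophage, endothelial, smooth muscle and T cell markers had overlapping sums. So did the 10 enterocyte markers, of which 3 were higher and 0 lower at an unadjusted limma p under 0.05. Their median log2 fold change was 0.75, and 0 passed limma over all genes.

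Of 14 heat shock genes, which respond to handling and temperature, 0 passed limma over all genes. At an unadjusted p under 0.05, 4 were lower and 0 higher, against 11.6% and 7.39% of all genes. The log2 fold change was below 0 for 12, as for 10345 of all 17523 genes, and the median was -0.23, against -0.07. Hspa1b, an inducible HSP70 gene, was at 1092 to 1475 in ApcMin/+ and 582 to 1097 in knockout libraries (log2 fold change -0.64, limma adjusted p = 0.183). Hsph1 and Hspe1 had -0.57 and -0.39 (limma adjusted p 0.252 and 0.224). Whether collection differed between the groups was not tested.

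**Figure D5:**
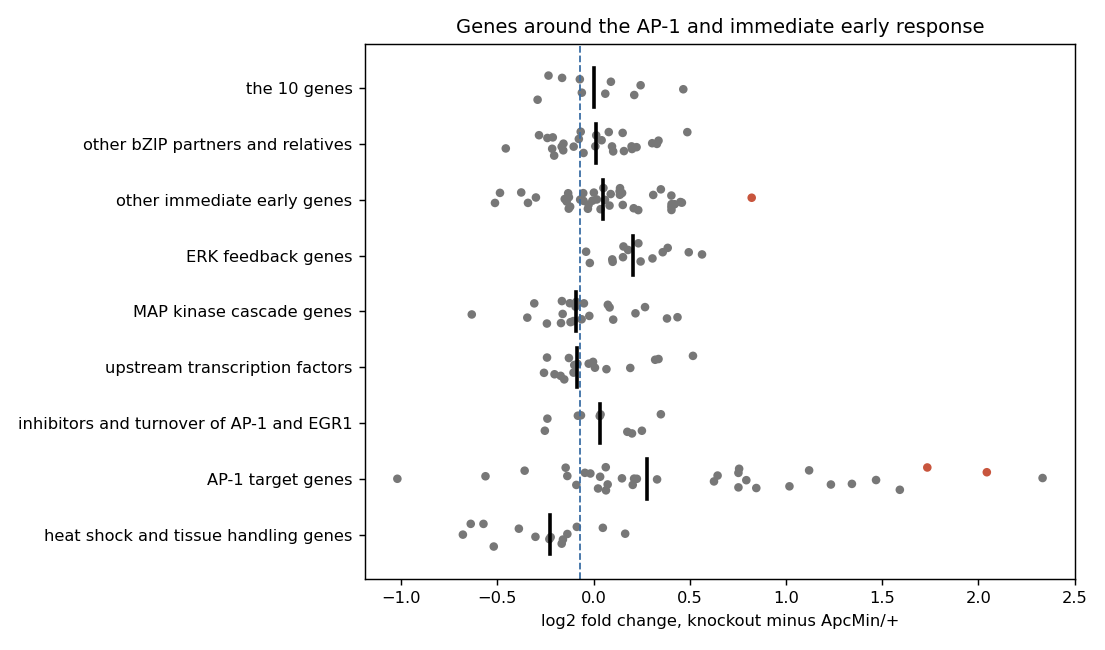
Log2 fold change, knockout minus ApcMin/+ (x axis), of each gene on 9 lists (rows); black bars are list medians, the dashed line is the median of all genes tested (-0.07), and red points passed limma over all genes. Ctgf, Ereg and Ptgs2 passed, and the 10 genes themselves lie between -0.29 and 0.47.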

How the data were processed

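Adenoma RNA was sequenced from strand-specific libraries, per the labels' protocols. The values are a score: read counts that the authors normalised with RUVs, which removes unwanted variation among replicates, per the sheet name in the file headers; as deposited they are whole numbers. The submitters' processing notes name mm10; which aligner, counter and annotation were used is not stated, and depth is unknown. Columns were assigned by mouse number and genotype. Of 48440 rows, 27 with names turned into dates were left out. Genes at 10 or more in at least 4 libraries were tested with limma 3.58.1 in R 4.3.3 (trend) on log2(value + 1), with Benjamini-Hochberg adjustment over all genes at 0.05. Fold changes on that scale understate changes of low genes.

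RUVs left 1 of 6 directions of replicate variation near 0 (singular value 0.0954 against 53.8); it was entered as a covariate, leaving 5 residual degrees of freedom. That direction contrasts ApcMin/+ replicates 1 and 2 with 3 and 4, which were sequenced in different orders. All knockout libraries shared the order of ApcMin/+ replicates 1 and 2, so sequencing order and genotype partly coincide. The script was tested on simulated data. Named genes were all 10 members, genes passing and the 3 smallest p of each pathway list, and the 5 most like Fos. Members and lists were chosen with earlier results of these data known. Alternatives were other pseudocounts (0.5, 5), filters (none, 50), scalings, covariates, weights and leaving out libraries. The labels list the mice as separate animals, although the column of the unnumbered library carries the animal number of ApcMin/+ replicate 4. Sfn and Xist were at 1 and 34488 in the unnumbered library, and at 15968 and 6 in ApcMin/+ replicate 4. The labels also list a knockout replicate 1 that no column names.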

Additional observations from a re-analysis of the deposited data

Results flagged for a closer look

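The Junb level in knockout replicate 4 stood apart from the other knockout libraries. At 6175 against 5314 to 5428, its gap to the nearest library was 0.868 of the whole range, above Dixon's 95% critical value for 4 libraries. Chance flags about 1 in 20 groups, and each gene was examined in both genotypes. The same library had the highest knockout level of Fos, Fosb, Jund and Egr1.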

How the results depend on the processing

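Over 21 other settings, 7 of the 10 genes kept the direction of their fold change and Fos, Junb and Egr1 did not. Fos turned to -0.014 with high Xist as a covariate, to -0.33 in the 5 libraries with Xist at or below 1000, and ranged from -0.10 to 0.27 when single libraries were left out, below 0 without ApcMin/+ replicate 2 or 3 or knockout replicate 4. Junb was 0.00027 after median-ratio scaling. Egr1 ranged from -0.095 to 0.23 when single libraries were left out, below 0 without ApcMin/+ replicate 1 or 4 or knockout replicate 4, and was 0.54 in the 5 low-Xist libraries against 0.06 as reported. The number of genes called over all genes, 58, was 426 without the removed direction, 18 with sequencing order as a covariate, 16 in the shared order, 13 with array weights and 2194 in the 5 libraries with low Xist, and 21 to 346 when single libraries were left out (346 without ApcMin/+ replicate 2, 144 without ApcMin/+ replicate 4, 25 without the unnumbered library, and 33, 21 and 25 without knockout replicates 2, 3 and 4). Of the 10 genes, 1 (Ier3) was called in the 5 low-Xist libraries and 0 in every other setting. The median of the 10 was -0.075 in those 5 libraries and -0.093 (without knockout replicate 4) to 0.057 (without knockout replicate 2) when single libraries were left out. The causes were not tested. Where a library was left out, its genotype kept 3 libraries. Without a knockout library the removed direction was entered, leaving 4 residual degrees of freedom. Without an ApcMin/+ library no such direction was found, leaving 5, so counts from the 2 kinds of fit are not directly comparable.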
